A study of Mus musculus with 32 samples.

Results

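The cytosolic ribosomal protein genes were followed in microglia of rTg4510 mice and their wild-type (WT) littermates. The set held the protein-coding genes whose symbols begin with Rpl or Rps followed by a digit, together with Rplp0, Rplp1, Rplp2 and Rpsa. The ribosomal S6 kinases, Rps19bp1 and every pseudogene were left out. These rules gave 87 of the 18588 genes in the table. Of these, 46 encode canonical proteins of the large subunit, 31 encode canonical proteins of the small subunit and 10 are paralogs or retrocopies. Microglia were collected at 2, 4, 6 and 8 months of age from female rTg4510 mice, which carry human tau with the P301L mutation behind a tetracycline-responsive promoter and the tTA activator behind the CaMKIIα promoter, a promoter of forebrain excitatory neurons. WT littermates carried neither transgene and are labelled 129/FVB F1. Each library came from forebrains of 8 to 10 animals that were pooled, cleared of myelin on Percoll and enriched with CD11b MicroBeads. The authors set out 4 libraries for each genotype and age and excluded 4 of them for failed quality control (the third replicates at 4 months and, at 8 months, the fourth, in WT as in rTg4510), which left 28 of 32 libraries. The comparison asked how the ribosomal protein transcripts of microglia differ with tau genotype at each age, and how that difference changes with age.

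A cytosolic ribosome is built from ribosomal RNA and proteins of many separate genes, and most of these proteins are present as a single copy, with the P-stalk proteins as the well-known exception. The large subunit joins amino acids and holds the exit tunnel, and the small subunit reads the mRNA. Ribosomal protein mRNAs are short and abundant, and many begin with a 5′ terminal oligopyrimidine tract (TOP), a C followed by a run of C and T through which mTORC1 and LARP1 control their translation. Translation of a TOP mRNA is not measured by RNA-seq.

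The start of the transcripts is shown first because the TOP letters are what the family is best known for at the sequence level. RefSeq promoter windows on GRCm38.p6 were matched for 67 of the 87 genes, 57 of them canonical. A C followed by 4 or more pyrimidines stood exactly at an annotated start in 13 of those 57 genes (22.8%), against 3.01% of all 27025 genes with a window. It began within 5 bases of the start in 27 of 57 (47.4%), against 21.2% of all genes with a window. The windows below run 5′ to 3′ with 15 bases before the annotated start and 15 from it onwards, and capitals mark the pyrimidine run. The first 7 were chosen as clear examples across both subunits. Rps27rt, the retrocopy of Rps27, shares the letters that follow the start. No such run begins within 5 bases of an annotated start in Rpl10a or Rpl7l1. Rpl10a was among the genes with the largest genotype difference, and Rpl7l1 is a paralog with no detectable difference. At a second annotated start of Rpl10a, not printed, a run of C begins further upstream.
Rpl13a, chr7:45128731-45128760, minus strand: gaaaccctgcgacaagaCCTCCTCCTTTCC
Rpl15, chr14:18270972-18271001, minus strand: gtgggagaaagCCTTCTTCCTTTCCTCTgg
Rpl27a, chr7:109519180-109519209, plus strand: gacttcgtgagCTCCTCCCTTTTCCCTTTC
Rps6, chr4:86857353-86857382, minus strand: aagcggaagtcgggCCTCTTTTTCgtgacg
Rps10, chr17:27635230-27635259, minus strand: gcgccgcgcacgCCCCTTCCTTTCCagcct
Rps18, chr17:33955651-33955680, minus strand: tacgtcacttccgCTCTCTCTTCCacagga
Rps27, chr3:90213634-90213663, minus strand: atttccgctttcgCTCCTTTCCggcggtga
Rps27rt, chr9:114982725-114982754, minus strand: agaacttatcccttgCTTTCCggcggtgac
Rpl10a, chr17:28328550-28328579, plus strand: gctctatttgagcgcatgcgcaaagcgctc
Rpl7l1, chr17:46782642-46782671, minus strand: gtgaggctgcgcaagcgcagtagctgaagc

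The values are gene-level log2 signals that the authors summarised from exon read counts and centred on the median of each library, so the median gene stood at 5.63 in every library. The table holds no counts, the lowest value in a library lay between 1.23 and 1.92, and levels are compared within a gene only. The labelled cell type was present in every group. The 10 microglia markers summed to between 14.72 and 15.30 on the log2 scale in all groups, with none near the lowest value. The 10 genes with the highest signal held 42.4 to 46.4% of the summed linear signal in WT libraries at 4 to 8 months and 30.3 to 34.2% in rTg4510 libraries of those ages, whereas the ranges met at 2 months (39.0 to 41.8% and 35.5 to 40.1%). The part of this difference in the results was not tested.

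Ribosomal protein transcripts were higher in rTg4510 microglia at every age, in every kept library. For each library, the difference of each canonical gene from its WT mean at 2 months was taken, and the median over the 77 genes was used to describe the library. At 2 months this median was 0.118, -0.0491, -0.0404 and -0.00437 on the log2 scale in the 4 WT libraries and 0.553, 0.428, 0.689 and 0.373 in the 4 rTg4510 libraries. At 4 months it was 0.0206, -0.0826 and -0.311 in WT and 0.842, 1.03 and 0.913 in rTg4510. The lowest rTg4510 library stood above the highest WT library at both ages. At 6 months the WT libraries were at -0.264, -0.279, -0.0529 and -0.0361 and the rTg4510 libraries at 1.07, 1.09, 1.21 and 1.05. At 8 months they were at -0.392, -0.143 and -0.314 and at 0.853, 0.993 and 0.797. The genotypes therefore did not overlap at any age, and the 6-month rTg4510 libraries were the highest of the kept libraries. The group means were 0.511 ± 0.14, 0.93 ± 0.0977, 1.1 ± 0.0743 and 0.881 ± 0.101 (SD, n = 4, 3, 4 and 3) in rTg4510 from 2 to 8 months, and 0.006 ± 0.0771, -0.124 ± 0.17, -0.158 ± 0.131 and -0.283 ± 0.127 in WT. The 4 excluded libraries kept the side of their genotype, at 1.08 and 0.48 for rTg4510 and -0.463 and -0.41 for WT. In bulk samples such as these, fewer cells of a type and less RNA per cell cannot be told apart.

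**Figure D1:**
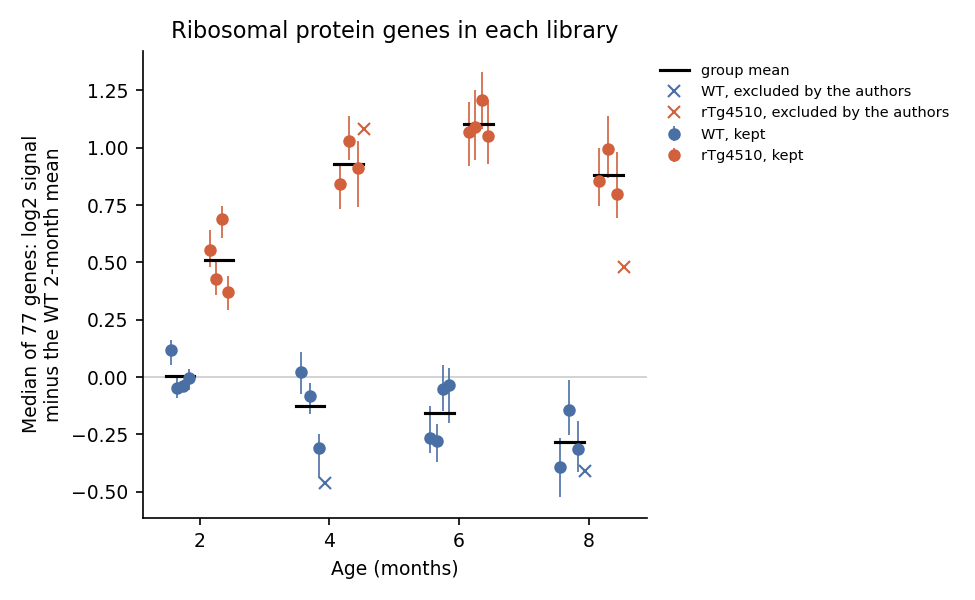
Each point is 1 library; the y axis gives the median over 77 canonical ribosomal protein genes of the log2 signal minus the gene's WT mean at 2 months, vertical lines the middle 50% of the genes, black bars the group means and crosses the libraries excluded by the authors. Kept rTg4510 libraries lie between 0.373 and 1.21 and kept WT libraries between -0.392 and 0.118.

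Tested gene by gene, 77 of the 87 genes were higher in rTg4510 at 2 months, 83 at 4 months, 84 at 6 months and 84 at 8 months (limma linear model across all 18588 genes, FDR < 0.05 within each contrast). Over all genes the shares called higher were 4.76%, 14.1%, 19.1% and 16.0%. None of the 87 was called lower at 2, 4 or 6 months, where 86, 86 and 85 of them had values above 0, and 1, Rpl3l, was called lower at 8 months. Over all genes 1.27%, 9.10%, 14.9% and 9.78% were called lower at the 4 ages. At 2 months the calls over all genes split into 885 higher and 236 lower, and into 737 and 394 after quantile normalization. With the additional limit of 1.5 fold that defines a DEG, 11, 81, 84 and 84 of the 87 were up-regulated, against 1.58%, 9.47%, 11.3% and 10.5% of all genes. The signals of the genotypes did not overlap for 77, 83, 84 and 84 genes, with rTg4510 above WT, against 7.49%, 19.1%, 18.2% and 21.2% of all genes. The median log2 fold change over the 87 was 0.50, 1.06, 1.25 and 1.17, against medians of 0.01, -0.04, -0.04 and -0.01 over all genes. The count at 2 months was the least stable: it was 28 with the 4 excluded libraries added to the fit and 45 when only the 2-month libraries were fitted.

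The canonical genes formed a narrow band. All 77 were called higher at 4, 6 and 8 months and 74 at 2 months, where Rpl29 (0.37, FDR = 0.0601), Rpl34 (0.28, FDR = 0.166) and Rps27a (0.36, FDR = 0.0873) missed the threshold by limma. At 6 months their fold changes ran from 1.65 for Rpl34 to 3.06 for Rpl32 and Rpl10a, and the middle 50% of genes lay between 1.18 and 1.38 on the log2 scale. The subunits were close to each other. Large-subunit genes had median log2 fold changes of 0.50, 1.03, 1.24 and 1.17 at the 4 ages and small-subunit genes 0.53, 1.09, 1.28 and 1.17. The 77 genes lie on 19 chromosomes, with at most 14 on a single chromosome (chromosome 7). Across the 77 genes the log2 fold changes at 4 and 6 months, which share no library, had a Pearson r of 0.829 (Spearman rho 0.797), those at 6 and 8 months 0.832 (0.785) and those at 2 and 4 months 0.441 (0.34). These values are descriptions across genes, which are not independent replicates. After the group means were removed, the median correlation between a pair of canonical genes over the 28 libraries was 0.736, so the counts above do not stand for independent observations.

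**Figure D2:**
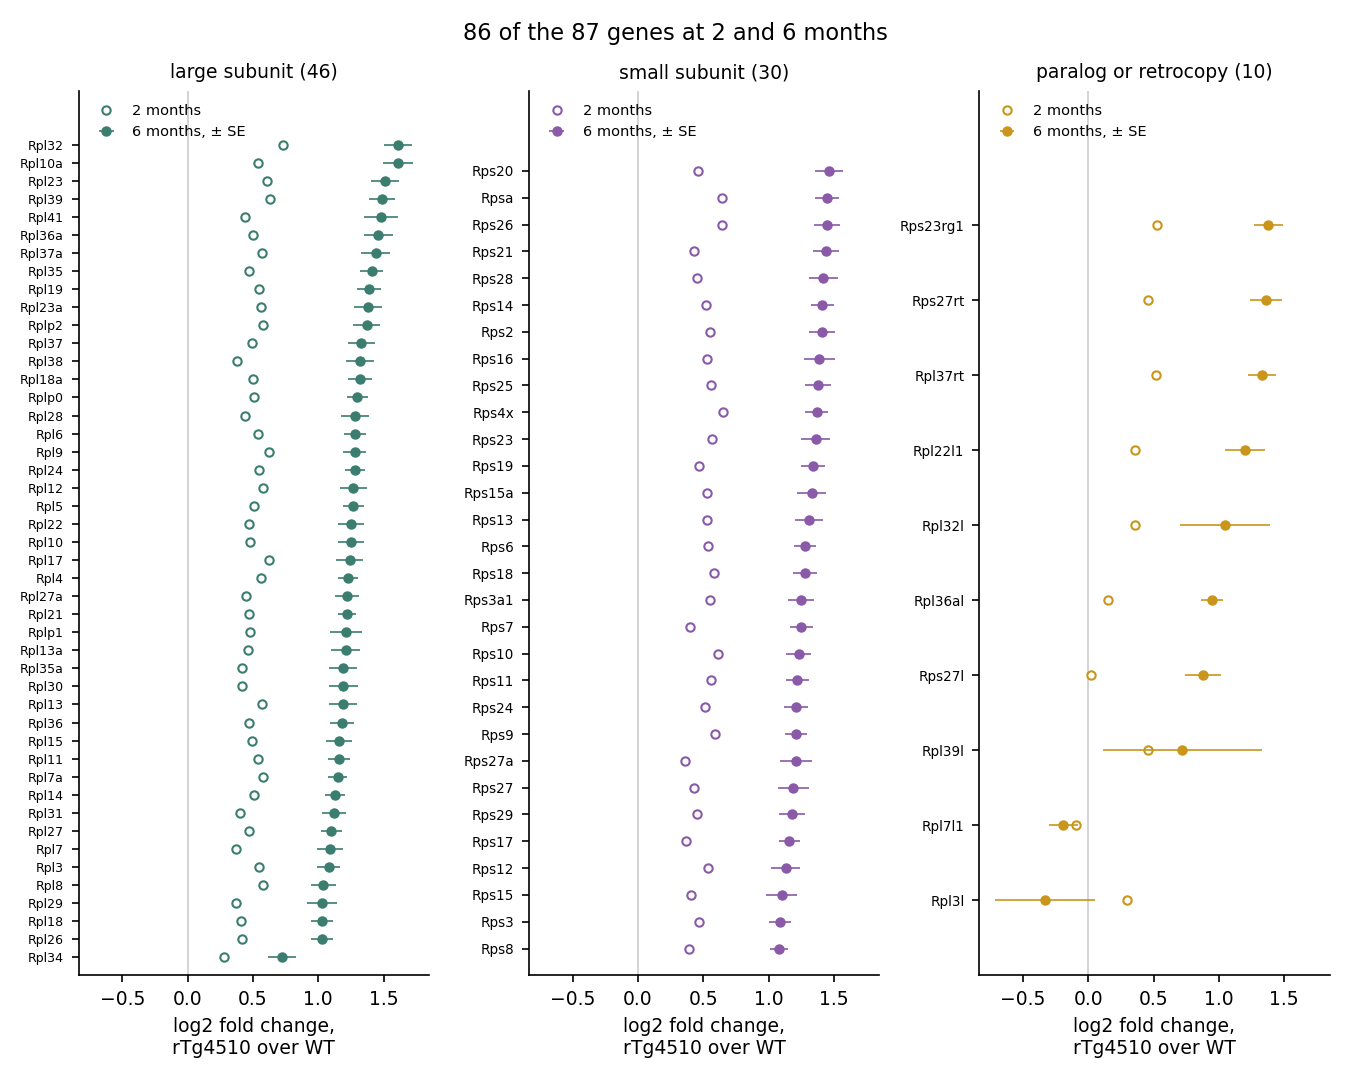
The log2 fold change of rTg4510 over WT is shown for 86 of the 87 genes at 2 months (open circles) and at 6 months (filled circles, ± SE), ordered by the 6-month value within large subunit, small subunit and paralogs or retrocopies. Canonical genes lie between 0.72 and 1.61 at 6 months, and the paralogs are more spread, with Rpl7l1 at -0.19 and Rps23rg1 at 1.38; Rpl3l is near the lowest signal.

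Among large-subunit genes, Rpl32, which encodes a structural protein of the large subunit, had the largest difference at 2 months. Its signal was 9.35, 9.28, 9.27 and 9.32 in WT and 10.12, 9.91, 10.30 and 9.83 in rTg4510 libraries at 2 months. At 6 months it was 9.04, 9.01, 9.28 and 9.36 in WT and 10.75, 10.77, 10.95 and 10.67 in rTg4510. Every rTg4510 library was above every WT library, at both ages. The log2 fold changes of Rpl32 were 0.73 ± 0.108, 1.39 ± 0.124, 1.61 ± 0.108 and 1.44 ± 0.124 (SE) from 2 to 8 months, with limma FDR = 0.00021 at 2 months and 2.11e-10 at 6 months. Rpl10a, a protein near the exit site for spent tRNA, stood at 5.82, 5.79, 6.26 and 6.23 in WT and 7.54, 7.64, 7.80 and 7.56 in rTg4510 at 6 months, and its groups did not overlap. Its log2 fold change went from 0.54 ± 0.117 at 2 months to 1.61 ± 0.117 at 6 months (limma FDR = 6.74e-10). Rpl23, Rpl39 and Rpl41 followed at 6 months with 1.51, 1.49 and 1.48. Rpl21, Rpl24 and Rpl35 had the smallest FDR values at that age (4.26e-11, 7.24e-11 and 7.62e-11 by limma), with log2 fold changes of 1.22, 1.28 and 1.41.

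Rpl34 had the smallest difference of the canonical genes at each age. At 2 months it was 6.26, 6.03, 5.87 and 5.80 in WT and 6.28, 6.28, 6.29 and 6.22 in rTg4510, and the highest WT library reached into the rTg4510 range. At 6 months it was 5.81, 5.93, 5.94 and 6.00 in WT and 6.66, 6.75, 6.58 and 6.59 in rTg4510, with no overlap. Its log2 fold change was 0.65 ± 0.124 at 4 months, 0.72 ± 0.107 at 6 months (limma FDR = 1.64e-05) and 0.78 ± 0.124 at 8 months.

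Genes of the P-stalk, the flexible arm of the large subunit that recruits elongation factors, were higher too. Rplp0, its base, was 7.33, 7.11, 7.16 and 7.28 in WT and 7.75, 7.62, 7.93 and 7.64 in rTg4510 libraries at 2 months. At 6 months it was 6.94, 6.79, 6.95 and 6.90 in WT and 8.19, 8.11, 8.24 and 8.26 in rTg4510. The groups were apart at both ages, and the log2 fold change was 0.51 ± 0.0823 and then 1.30 ± 0.0823 (limma FDR = 0.000401 and 1.09e-10). Rplp1 and Rplp2, the acidic proteins that form the arm, had 6-month log2 fold changes of 1.21 and 1.37. All 3 were called higher at each age.

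Proteins that line or surround the exit tunnel were likewise all called higher at each age. Rpl4, Rpl17 and Rpl39, which line the tunnel, had a median log2 fold change of 0.62 at 2 months and 1.24 at 6 months. The 5 genes for proteins around its opening, Rpl19, Rpl23a, Rpl26, Rpl31 and Rpl35, had medians of 0.47 and 1.38. Rpl5 and Rpl11 form a particle with 5S RNA that can bind the p53 regulator MDM2 when it is not built into a ribosome. Rpl5 was 8.47, 8.41, 8.55 and 8.61 in WT and 9.72, 9.81, 9.77 and 9.81 in rTg4510 at 6 months. Rpl11 was 8.15, 8.19, 8.40 and 8.39 in WT and 9.43, 9.47, 9.48 and 9.38 in rTg4510. Neither gene had an overlap, and the log2 fold changes were 1.27 ± 0.083 and 1.16 ± 0.0845 (limma FDR = 1.69e-10 and 7.14e-10). The 18 genes on a list of those linked to Diamond-Blackfan anaemia, a ribosomal protein deficiency of red cell production, were all called higher at each age, with medians of 0.46, 1.01, 1.19 and 1.13.

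In the small subunit, Rpsa, a protein at the surface also known as the laminin receptor precursor, was among the genes with the largest difference at 2 months. Its signal was 8.12, 8.08, 7.96 and 8.12 in WT and 8.91, 8.57, 8.81 and 8.55 in rTg4510 at that age. At 6 months it was 7.90, 7.83, 8.02 and 8.10 in WT and 9.33, 9.45, 9.48 and 9.38 in rTg4510. The groups were separate at both ages, and the log2 fold changes were 0.64 ± 0.0915 and 1.45 ± 0.0915 (limma FDR = 0.000165 and 1.12e-10). Rps26 and Rps4x were also among the largest at 2 months, at 0.64 and 0.65.

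Rps6, the substrate of the S6 kinases, was 8.92, 8.81, 8.83 and 8.79 in WT and 9.47, 9.27, 9.53 and 9.26 in rTg4510 at 2 months, and 8.83, 8.68, 8.93 and 8.88 against 10.09, 10.15, 10.03 and 10.18 at 6 months. No WT library reached an rTg4510 library. The log2 fold changes were 0.54 ± 0.0821 and 1.28 ± 0.0821 (limma FDR = 0.000256 and 1.26e-10). Rps27a, which is made as a fusion with ubiquitin, overlapped between genotypes at 2 months and had a log2 fold change of 1.21 ± 0.12 at 6 months (limma FDR = 5.59e-08). The 4 genes for proteins at the mRNA entry and decoding sites (Rps2, Rps3, Rps15 and Rps23) had medians of 0.51, 1.09, 1.23 and 1.16 and were all called higher at each age.

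The 10 paralogs and retrocopies were the members that did not move as a block: 3, 6, 7 and 7 of them were called higher at the 4 ages. Rpl7l1, an Rpl7 paralog that acts in ribosome assembly, was 6.05, 5.98, 5.74 and 5.87 in WT and 5.48, 5.82, 6.00 and 5.99 in rTg4510 at 2 months. At 6 months it was 5.72, 5.96, 5.94 and 5.85 in WT and 5.63, 5.91, 5.62 and 5.57 in rTg4510. The ranges overlapped at both ages. Its log2 fold changes of -0.09 ± 0.108, -0.08 ± 0.125, -0.19 ± 0.108 and -0.20 ± 0.125 were not called (smallest limma FDR 0.193), while its parent Rpl7 rose by 0.37 at 2 months and 1.09 at 6 months. Rps27l, a p53 target gene and paralog of Rps27, was 7.54, 6.91, 7.06 and 7.29 in WT and 7.04, 7.19, 7.38 and 7.25 in rTg4510 at 2 months, with overlapping ranges. At 6 months it was 6.78, 6.48, 7.12 and 6.99 in WT and 7.52, 7.87, 7.85 and 7.65 in rTg4510, with none. Its log2 fold change was 0.02 ± 0.136 at 2 months, 0.52 ± 0.157 at 4 months and 0.88 ± 0.136 at 6 months (limma FDR = 0.979, 0.0193 and 2.65e-05), beside 0.43 at 2 months and 1.19 at 6 months for Rps27. The 4-month call of Rps27l was lost when only the groups compared were fitted (limma FDR = 0.0612) and without rTg4510 replicate 2, WT replicate 1 or WT replicate 4 of 4 months (0.0755, 0.0773 and 0.0623).

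Rpl36al and Rpl22l1 were also uncalled at 2 months and higher later. Rpl36al was 8.05, 7.83, 8.06 and 7.82 in WT and 8.05, 8.08, 8.14 and 8.11 in rTg4510 at 2 months, and 7.57, 7.82, 7.97 and 7.67 against 8.75, 8.80, 8.74 and 8.55 at 6 months. The groups overlapped at the first of these ages and were apart at the second. Its log2 fold changes were 0.15 ± 0.0855 and 0.95 ± 0.0855 (limma FDR = 0.409 and 1.36e-08), beside 0.50 and 1.46 for Rpl36a. Rpl22l1, which can replace Rpl22 in the large subunit, had 0.36 ± 0.152 at 2 months and 1.34 ± 0.175 at 4 months (limma FDR = 0.221 and 5.5e-06), beside 0.47 and 1.18 for Rpl22. Whether a paralog differed from its parent was not tested.

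Rpl3l and Rpl39l, which are known from muscle and testis, had low signals. Rpl3l at 8 months was 4.64, 3.84 and 3.69 in WT and 2.34, 3.07 and 2.15 in rTg4510, where the lowest values of the libraries were 1.60, 1.49 and 1.41. The groups did not overlap and the gene was called lower (limma FDR = 0.0124), but the rTg4510 values lay near the lowest signal of the table and no fold is given. The call was lost with the replicate number as a block (FDR = 0.0684), when only the 8-month libraries were fitted (FDR = 0.0966) and without rTg4510 replicate 3 or WT replicate 1 of that age. Rpl39l ranged from 1.43 to 4.74 and was called at no age (smallest limma FDR 0.39). The retrocopies Rps27rt, Rps23rg1 and Rpl37rt had 6-month log2 fold changes of 1.36, 1.38 and 1.33. The values for Rps27, Rps23 and Rpl37 were 1.19, 1.36 and 1.33. The authors' counting could have divided reads where copies share sequence. Of the read-length stretches of the Rps27 transcript, 98.4% occurred in Rps27rt, and of those of Rpl37, 21.5% occurred in Rpl37rt. Rps23 and Rps23rg1 shared no such stretch. Rpl32l was called at 6 and 8 months (1.05 and 1.27).

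**Figure D3:**
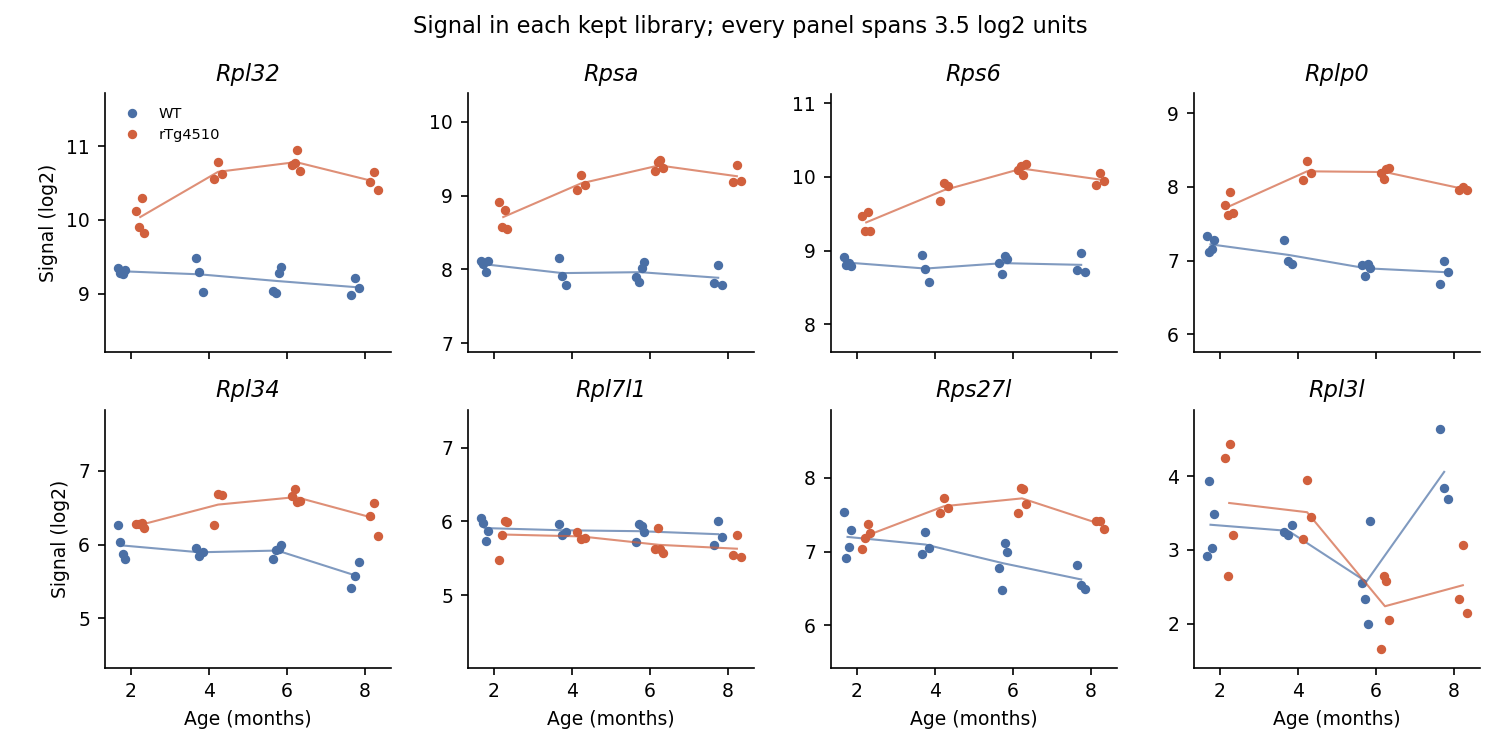
Log2 signal of 8 genes in each of the 28 kept libraries by age in months, with lines through the group means; every panel spans the same number of log2 units. Rpl32, Rpsa, Rps6 and Rplp0 are apart at each age, Rpl34 and Rps27l overlap at 2 months, Rpl7l1 overlaps at each age, and Rpl3l varies widely at low signal.

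The genotype difference grew between 2 and 4 months, and no further change passed the test. For 59 of the 87 genes the difference at 4 months was larger than at 2 months (interaction term, limma, FDR < 0.05), and for none was it smaller. Over all genes 5.26% had a larger value. The median increase over the 77 canonical genes was 0.57 on the log2 scale, from 0.25 to 0.90. Among the named genes it was largest for Rpl22l1 (0.98), Rpl41 (0.90), Rps20 (0.88), Rpl10a (0.84) and Rpl39 (0.83). The count was 22 without WT replicate 4 of 4 months, 29 without rTg4510 replicate 2 of 4 months, 38 with the excluded libraries and 20 when only the groups compared were fitted.

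No gene of the 87 passed for a further change of the genotype difference between 4 and 6 months or between 6 and 8 months, where 0.172% and 0.00% of all genes passed. At an unadjusted p under 0.05 the counts were 13 and 0 (14.9% and 0% of the 87), against 8.15% and 4.52% of all genes. With moderated variances the counts were 0 at an FDR of 0.05. The canonical genes changed by a median of 0.20 (0.00 to 0.42) in the first of these steps and -0.10 (-0.26 to 0.31) in the second, with a median SE of 0.15.

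Within rTg4510, 68 of the 87 genes rose from 2 to 4 months (limma, FDR < 0.05), against 9.73% of all genes, with a median of 0.41 over the canonical genes. The count was 36 without rTg4510 replicate 2 of 4 months, 44 after quantile normalization, 44 with the excluded libraries and 13 when only the groups compared were fitted. From 4 to 6 months Rpl10 alone rose (0.45, limma FDR = 0.033), against 0.683% of all genes. That count of 1 was 0 when only the groups compared were fitted, and 0 without rTg4510 replicate 1 or 2 of 4 months or replicate 1, 2 or 3 of 6 months. It was 2 after quantile normalization, after trimmed-mean centring, with the excluded libraries, and without rTg4510 replicate 3 of 2 months or 4 of 4 months, WT replicate 4 of 4 months or WT replicate 2 or 3 of 6 months, and 3 without WT replicate 2 of 8 months. From 6 to 8 months 0 genes passed, against 0.00538% of all genes. All 77 canonical differences were nevertheless below 0 (-0.35 to -0.04), while 42.4% of all genes were above 0. An unadjusted p under 0.05 was reached by 42 of the 87 genes (48.3%), against 14.4% of all genes.

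Within WT, 0 genes passed in any of the steps by limma, with or without moderated variances, against 0.0861%, 0.113% and 0.00% of all genes. At an unadjusted p under 0.05 the counts were 22, 2 and 8 (25.3%, 2.3% and 9.2% of the 87), against 10.2%, 8.65% and 9.78% of all genes. The canonical medians were -0.12 from 2 to 4 months, -0.03 from 4 to 6 months and -0.12 from 6 to 8 months.

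Ribosomal protein genes have many processed copies, so the transcripts were compared with each other. For 85 of the 87 genes a GENCODE M21 transcript was cut into windows of 100 bases, the read length per end, and each window was looked for in the transcripts of other genes. The median canonical gene had 33.9% of its windows in another gene, and Rps27 had 98.4%. In 5 canonical genes, among them Rpl22, Rpl32, Rps3 and Rps21, no window was shared with another annotated transcript. All 5 were called higher at each age, with median log2 fold changes of 0.47, 1.11, 1.44 and 1.28. Rpl22, an RNA-binding protein of the large subunit, was 9.08, 9.15 and 8.99 in WT and 10.20, 10.21 and 10.13 in rTg4510 at 8 months, with no overlap and a log2 fold change of 1.11 ± 0.117 (limma FDR = 2.46e-07). The 28 canonical genes with more than 50% of windows shared had medians of 0.54, 1.01, 1.23 and 1.17. Across the 77 genes the shared percentage and the 6-month log2 fold change had a Pearson r of -0.125 and a Spearman rho of -0.174, given as a description. The 191 pseudogenes named after ribosomal proteins, whose reads cannot be told from those of their parents where the sequence is the same, had medians of 0.49, 1.08, 1.21 and 1.13, and 101, 144, 160 and 150 of them were called higher.

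**Figure D4:**
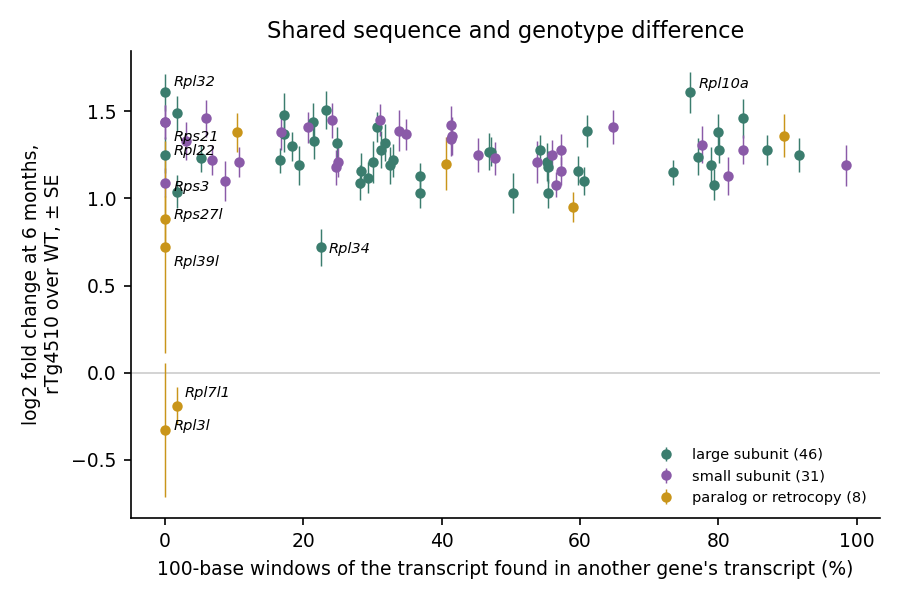
The log2 fold change at 6 months (± SE) is plotted against the percentage of 100-base windows of a transcript that occur in another gene's transcript, for the 85 genes with a transcript. Genes with no shared window include Rpl32 at 1.61, Rps21 at 1.44, Rps3 at 1.09 and Rps27l at 0.88, and Rpl7l1, with 1.68% of its windows shared, is at -0.19.

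Fau and Rack1 belong to the cytosolic ribosome although their names escape the symbol rule. Fau, whose product is cleaved from a ubiquitin-like fusion to release a ribosomal protein, had log2 fold changes of 0.35, 0.92, 1.18 and 1.07 at the 4 ages and was called higher at all but 2 months (limma FDR = 0.0771). Rack1, a scaffold on the small subunit, had a value of 0.54 at 2 months and of 1.20 at 6 months and was called at each age (limma FDR = 2.28e-10 at 6 months). Of 12 genes for elongation factors and nascent-chain partners, 7, 10, 10 and 9 were called higher, with a median of 0.86 at 6 months. Eef1a1, which brings aminoacyl-tRNA to the ribosome, and Eef1b2, its exchange factor, had 1.37 and 1.33. Eef2k, the kinase that inhibits elongation factor 2, fell by 0.76 at 6 months, and it was the list's 1 gene called lower at that age.

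Genes that build ribosomes had medians nearer 0. Of 43 small-subunit biogenesis genes 2, 8, 13 and 6 were called higher at the 4 ages, and of 56 large-subunit biogenesis genes 3, 8, 13 and 11, with 0, 1, 0 and 0 and with 0, 1, 2 and 1 called lower and 6-month medians of 0.16 and 0.15. The shares called higher were 4.65%, 18.6%, 30.2% and 14% for the first list and 5.36%, 14.3%, 23.2% and 19.6% for the second. Over all genes they were 4.76%, 14.1%, 19.1% and 16.0%. The highest of these at 6 months were Npm1, the nucleolar chaperone nucleophosmin (1.19), and Nsa2, an assembly factor of the large subunit (1.04). Rrp1b (-0.71) and Nip7 (-0.62) were called lower. Of 14 genes for RNA polymerase I and its factors, which transcribe ribosomal RNA, 2, 2, 4 and 4 were called higher and 0, 1, 0 and 2 lower, with a 6-month median of 0.18. Of 21 genes for mTORC1 and regulators of TOP mRNAs 2, 2, 7 and 4 were called higher and 0, 2, 3 and 1 lower, with a 6-month median of 0.05. Pabpc1, the poly(A)-binding protein whose own mRNA has a TOP, and Eif4ebp1, the translation repressor 4E-BP1, led that list at 6 months (1.31 and 1.09), and Tia1, which binds TOP mRNAs under stress, fell by 0.62.

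The mitochondrial ribosome is a separate particle with its own proteins. Of its 78 protein genes 2, 11, 19 and 10 were called higher, with medians of 0.04, 0.16, 0.18 and 0.13. These counts are 2.56%, 14.1%, 24.4% and 12.8% of the list, near the 4.76%, 14.1%, 19.1% and 16.0% of all genes. Transcript length was set beside these values because canonical ribosomal protein transcripts are short, with a median of 833 bases. The 172 other coding genes with a transcript under 1 kb and a mean signal of at least 7 had median log2 fold changes of 0.08, 0.40, 0.47 and 0.40, and 24, 91, 109 and 97 of them were called higher and 7, 21, 37 and 29 lower. The 1010 other coding genes with a transcript of 4 kb or more and the same signal had medians of -0.00, -0.09, -0.06 and -0.06, with 42, 122, 191 and 162 called higher and 29, 253, 282 and 222 lower. These length classes were chosen after values had been seen. Within the 77 canonical genes, length and the 6-month log2 fold change had a Pearson r of 0.0597. The part of transcript length in the result was not tested.

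**Figure D5:**
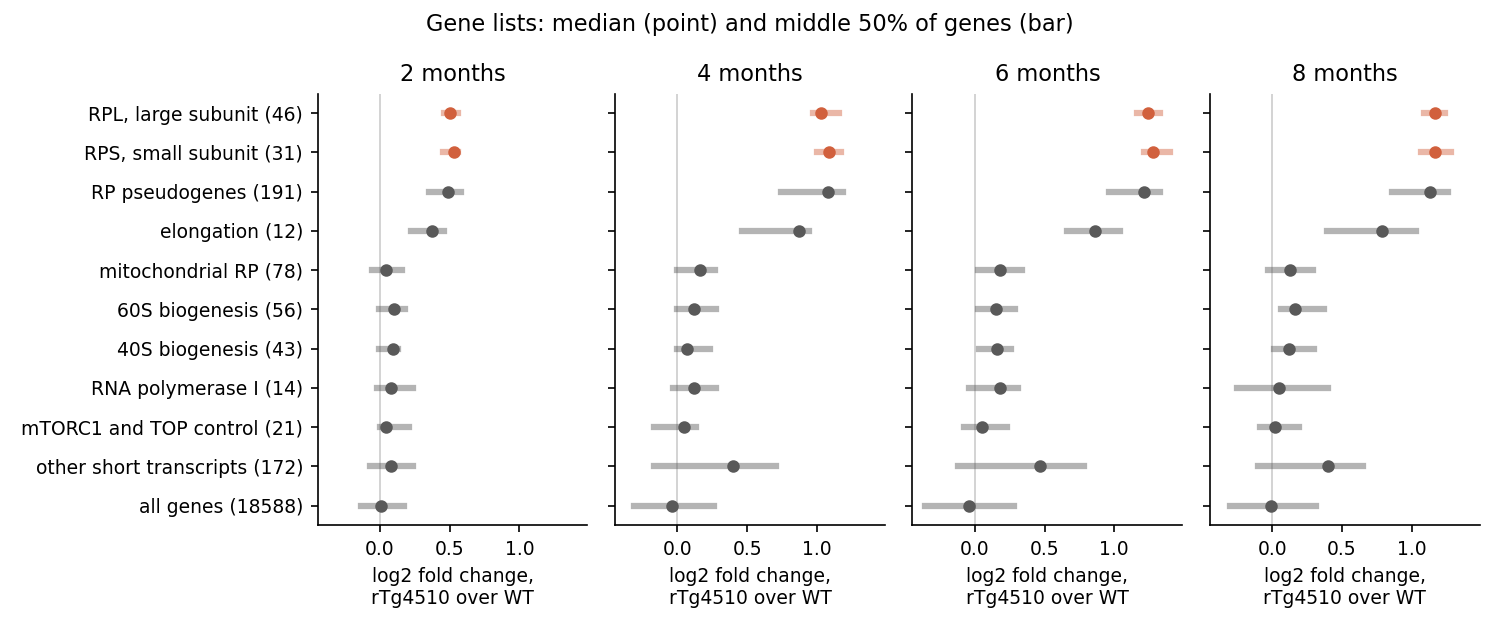
Points give the median log2 fold change of rTg4510 over WT for each gene list at each age and bars the middle 50% of its genes, with the number of genes in parentheses. Large- and small-subunit genes (orange) lie near 0.5 at 2 months and above 1 later, with pseudogenes beside them, while the biogenesis, mitochondrial and mTORC1 lists stay below 0.2.

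Canonical genes with and without the start letters had close medians. The 27 canonical genes with a pyrimidine run near the start, such as Rpl15, Rps6 and Rps18 above, had median log2 fold changes of 0.51, 1.05, 1.27 and 1.17, and the 30 with a window but no such run had 0.53, 1.10, 1.28 and 1.17. The letters CCGGAAG, the core bound by ETS factors, were looked for on either strand of the 300-base window (250 before and 50 after the start). They were present in 24 of 57 canonical genes (42.1%), against 9.93% of the 27025 genes with a window. Those 27025 include genes that are not among the 18588 measured. Canonical genes with and without these letters had 6-month medians of 1.30 and 1.27. GGGCGG, an Sp1 box, stood in 61.4% against 38.2% of all genes with a window. AAGATGGC, a YY1 motif, stood in 8.77% against 3.19%, and CACGTG, the E-box read by Myc, in 10.5% against 8.09%. TATAAA was in the 50 bases before the start of 0 of the 57 genes, against 3.15% of all genes with a window. These are matches of letters in annotated windows, and binding was not measured.

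Genes of other cells moved with genotype at the later ages. The 8 neutrophil markers summed to 9.02 to 10.35 (log2) in WT and 7.40 to 8.16 in rTg4510 at 6 months, when 8 of 8 were called lower and Mpo and Elane lay near the lowest signal in rTg4510. At 2 months the sums were 9.10 to 9.92 in WT and 8.74 to 10.39 in rTg4510, and 0 of 8 were called. At 4 months the sums were 9.16 to 10.07 in WT and 8.22 to 9.01 in rTg4510 with 0 of 8 called, and at 8 months 10.05 to 10.38 and 7.79 to 9.13 with 6 of 8 called lower. Of 9 proliferation genes 0, 7, 1 and 1 were called higher at the 4 ages, and 0, 0, 5 and 2 lower, and their sum was 8.77 to 8.91 in rTg4510 against 7.81 to 8.08 in WT at 4 months. At 6 months the proliferation sums were 8.12 to 8.30 in rTg4510 and 8.07 to 8.32 in WT. Markers of border macrophages, lymphocytes, neurons, astrocytes, oligodendrocytes, endothelium and red cells formed short lists of 3 to 6 genes. At most 3 genes of a list were called lower at any age and at most 1 higher. Astrocyte markers at 8 months had 3 of 6 lower (50%, against 9.78% of all genes) and 1 higher. Endothelial markers at 6 months had 2 of 5 lower (40%, against 14.9% of all genes) and 1 higher. Only 3 of 7 neuron markers were in the table, with a median log2 fold change of -1.13 at 8 months. Of the 10 microglia markers 1, 2, 3 and 2 were called higher and 4, 4, 5 and 5 lower, with Tyrobp at 1.31 and Tmem119 at -0.78 at 6 months. The part of these differences in the ribosomal protein result was not tested. Of 14 commonly used reference genes 4, 7, 9 and 8 were called higher, among them Gapdh (1.15 at 6 months) and B2m (0.82), and 0, 0, 1 and 0 lower, the 1 being Tfrc at 6 months (-0.48, limma FDR = 0.00677).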

How the data were processed

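RNA from pooled CD11b-enriched microglia was amplified as cDNA (NuGEN Ovation V2) and sequenced as paired 100-base reads. The deposited table holds log2 values per gene: per the labels and methods, the authors summed reads per exon, removed exons that stayed under 10 counts in over 80% of libraries, combined exons by a robust linear model and median-normalized each library. The build was GRCm38 per the submitters' processing notes, and the aligner is not given in the sources used here. A genotype by age linear model was fitted to all 18588 genes and 28 libraries with limma 3.58.1 (R 4.3.3; ordinary variances, 20 residual degrees of freedom), with FDR adjusted within each contrast over all genes. Calls used FDR < 0.05, and DEGs also 1.5 fold. The table holds no counts, so the depth behind each value is not known from it. No column was left unused; 95.9% of gene IDs matched RefSeq. The ribosomal protein genes and the gene lists were chosen with earlier results of these data known. Named genes were, at each age, the 5 largest and 5 smallest differences above the 25th percentile of signal, genes called against the majority, up to 10 by FDR at 2 months and 3 at 6 months, paralogs with their parents, P-stalk genes, Rps6, Rps27a, Rpl5 and Rpl11; other genes are list examples. Certain single genes are not reported here. The fit was tested on simulated data. Same-numbered libraries deviated together at 6 months (r from 0.131 to 0.153) and 8 months (0.150 to 0.291). At 2 months the r of such pairs was 0.0649 to 0.167, and at 4 months it was -0.0999, 0.124 and -0.0819. The highest r between different numbers was 0.0816 at 2 months, 0.0913 at 6 months and -0.0281 at 8 months. At 4 months WT replicate 1 with rTg4510 replicate 4 had 0.152, and WT replicate 4 with rTg4510 replicate 1 had 0.154. The numbers thus appear to pair the samples at 6 and 8 months, less clearly at 2 months and not at 4 months. The labels do not say so, and the replicate block used the numbers at every age. The main fit used no pairing at any age. Alternatives were the 4 excluded libraries, separate fits, moderated variances, 3 other scalings, a low-signal filter, a replicate block and each library left out.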

Additional observations from a re-analysis of the deposited data

Results flagged for a closer look

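The genotype difference of 59 of the 87 genes was larger at 4 than at 2 months by the interaction term, and 25 of these are named genes. The increases on the log2 scale were 0.57 for Rpl10, 0.84 for Rpl10a, 0.45 for Rpl11, 0.75 for Rpl21, 0.71 for Rpl22, 0.98 for Rpl22l1, 0.61 for Rpl23, 0.44 for Rpl24, 0.66 for Rpl32, 0.70 for Rpl35, 0.81 for Rpl36a, 0.83 for Rpl39, 0.45 for Rpl4 and 0.90 for Rpl41. They were 0.45 for Rpl5, 0.53 for Rpl7, 0.41 for Rpl7a, 0.62 for Rplp0, 0.65 for Rplp2, 0.88 for Rps20, 0.62 for Rps26, 0.73 for Rps27a, 0.73 for Rps27rt, 0.52 for Rps6 and 0.57 for Rpsa.

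Among 172 groups of 4 libraries looked at for a library far from the others (the named genes and the library medians at 2 and 6 months), 4 stood out, where chance gives about 1 in 20. Rpl22l1 was at 7.10 in WT replicate 1 of 2 months, Rpl14 at 6.79 in WT replicate 2 of 6 months, Rpl34 at 6.22 in rTg4510 replicate 4 of 2 months and Rplp1 at 9.67 in rTg4510 replicate 3 of 6 months.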

How the results depend on the processing

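The counts called higher at 4, 6 and 8 months stayed within 1.5 times of the reported counts under all 36 alternatives. With the 4 excluded libraries the counts were 28 higher at 2 months, 38 for the change of the genotype difference from 2 to 4 months, 44 for rTg4510 from 2 to 4 months and 2 from 4 to 6 months. When only the groups compared were fitted, with fewer degrees of freedom, they were 45, 20, 13 and 0, and 0 were lower at 8 months. Quantile normalization gave 44 and 2 for the rTg4510 steps and median log2 fold changes of 0.91, 1.07 and 1.01 at 4, 6 and 8 months, and trimmed-mean centring gave 2 for rTg4510 from 4 to 6 months. The low-signal filter, which removes Rpl3l, left 0 lower at 8 months. The replicate block gave 78, 83, 84 and 84 higher and 0 lower at 8 months, and it changed no other count by over 1.5 times. It changed the call for 2 of the 168 values of named genes. With each library left out in turn, the ranges were 65 to 79, 82 to 83, 83 to 84 and 83 to 84 higher from 2 to 8 months, 0 to 1 lower at 8 months, 22 to 68 for the change from 2 to 4 months, 36 to 72 for rTg4510 from 2 to 4 months and 0 to 3 from 4 to 6 months. Of 6040 values of named genes under an alternative, 107 changed side of the threshold, 90 of them at 2 months, and 0 reversed. Except where a construction is named, the cause was not tested. The table holds no counts per gene, so what depth limits could not be computed from it.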
